A study of Saccharomyces cerevisiae with 3 samples.

Results

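The 3' ends of PGK1 reporter mRNA were compared between a reporter carrying a run of 12 AAA codons, which encode lysine, and one carrying a stem loop, a hairpin in the mRNA that blocks the ribosome physically. These were 2 of the 3 sequencing libraries of the series, 1 per reporter, and the remaining one (12 CGA codons, arginine) is quoted only where it helps to place a difference. Positions are counted from the ATG. All 464 positions from 21 to 484 nt past the primer, which lies at position 585, were included, with positions not listed in a library's table set to 0. They were divided at the boundary, 372 nt past the primer, past which few AAA ends were listed: the upstream stretch holds the 352 positions up to and including the one after 956, and the downstream stretch the other 112. The share of ends at a position is its reads divided by all reads of that library.

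Both groups were budding yeast (Saccharomyces cerevisiae) of strain BY4741 with SKI2 deleted (ski2delta). Each strain expressed its PGK1 reporter, and the cultures, in medium lacking uracil, had 2% galactose and 2% raffinose as sugars and were taken at an optical density of about 0.8. No treatment was given, and total RNA of whole cells was used. An adaptor was ligated to RNA 3' ends, and cDNA was amplified between it and the PGK1 primer, so the amplified fragments began at that primer. The AAA library held 4154995 ends and the stem-loop library 4870458. There was no replicate of either reporter, so no difference below has a test. The 95% intervals (Wilson for shares, on the log scale for ratios) cover counting error only, and copies made by PCR count as separate ends. Shares describe where ends lay within a library and not how much reporter RNA the cells held. The labels do not say whether ends of the chromosomal PGK1 mRNA were kept apart from those of the reporter, which promoter drove it, or where in the gene each stall was placed. The reporters carry different inserts, so past an insert the same position need not be the same base of PGK1 in each.

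As background, a ribosome that halts on an mRNA is run into by the ribosome behind it, and the collided ribosomes trigger no-go decay, in which the mRNA is cut by an endonuclease close to the stall. The 5' piece of the cut mRNA is then normally removed from its new 3' end by the cytoplasmic exosome with the help of the Ski complex. Ski2 is the helicase of that complex, and cells without it keep such 5' pieces, so their 3' ends can be mapped. Runs of AAA codons halt ribosomes through the lysine-rich chain in the exit tunnel and the A-rich mRNA in the decoding centre, whereas a stem loop stands in the way of the moving ribosome. PGK1 (YCR012W) encodes phosphoglycerate kinase, a glycolytic enzyme, and its annotated coding length is 1251 nt.

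The AAA and stem-loop reporters shared most of their frequent ends up to about 30 nt before the boundary. Their profiles differed in those 30 nt, and past the boundary few AAA ends were listed while many stem-loop ends were. The upstream stretch held 99.87% of the AAA ends (interval 99.867 to 99.874) and 85.02% of the stem-loop ends (84.98 to 85.05). The downstream stretch held 3166 ends of the AAA library, which was 0.0762% (0.0736 to 0.0789), and 717597 of the stem-loop library, which was 14.7% (14.70 to 14.77). The stem-loop share of the downstream stretch was thus 193 times the AAA share. Beyond it both libraries had few ends, 0.0527% in the AAA and 0.249% in the stem-loop library.

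**Figure D1:**
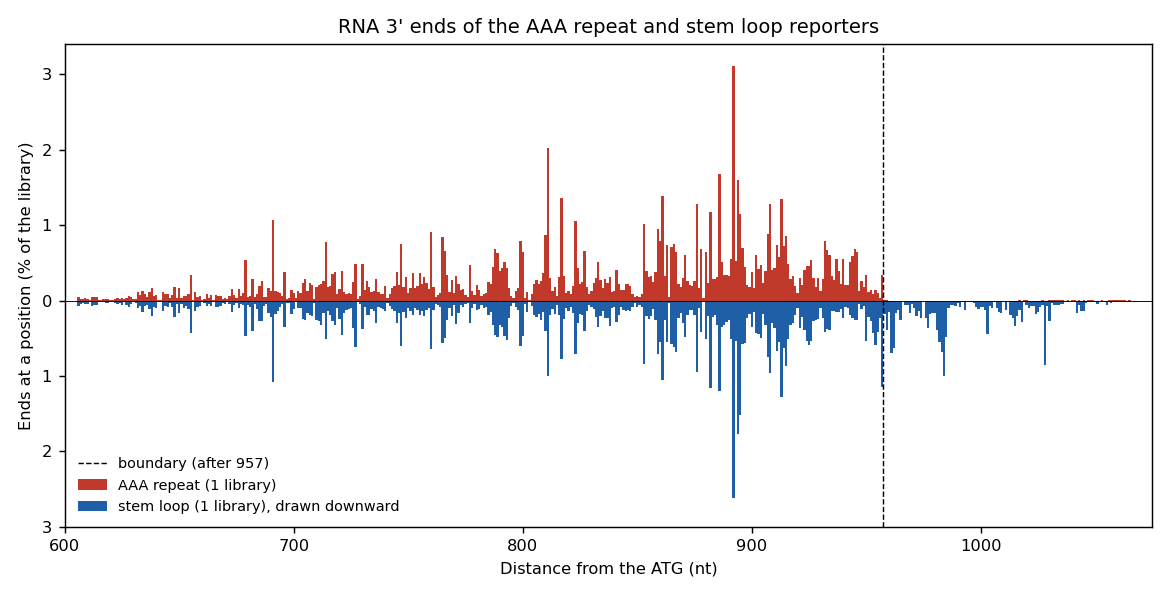
Share of 3' ends at each compared position (horizontal axis, nt from the ATG), with the AAA repeat library drawn upward and the stem-loop library downward in percent of all ends of the library; the dashed line marks the boundary. The tallest bar of both libraries stands at 892 (3.12% and 2.62%), and the stem-loop bars continue past the line where the AAA bars are too small to see.

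Because the stem-loop library placed part of its ends downstream, the choice of denominator mattered for every upstream ratio. Dividing by the total of the upstream stretch in place of the library total lowered each log2 ratio of AAA over stem loop by 0.23, a factor of 1.17. The median over the 352 positions was 0.17 with the library total and -0.06 with the upstream total, so its sign was set by that choice. Ratios below use the library total and are read against a median of 0.17 unless the upstream total is named.

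The order of the cumulative curves changed along the mRNA. As a share of the upstream ends, the stem-loop curve was ahead by up to 4.06 percentage points, at position 739, where it had reached 20.3% and the AAA curve 16.2%. The AAA curve then overtook it and led by up to 3.22 points at position 949, where it stood at 98.7% against 95.5%. The medians within this stretch were close, at position 856 for AAA and 859 for stem loop. Over all ends of each library the AAA median was at 857 and the stem-loop median at 878, and the 90th percentiles were at 928 and 981.

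**Figure D2:**
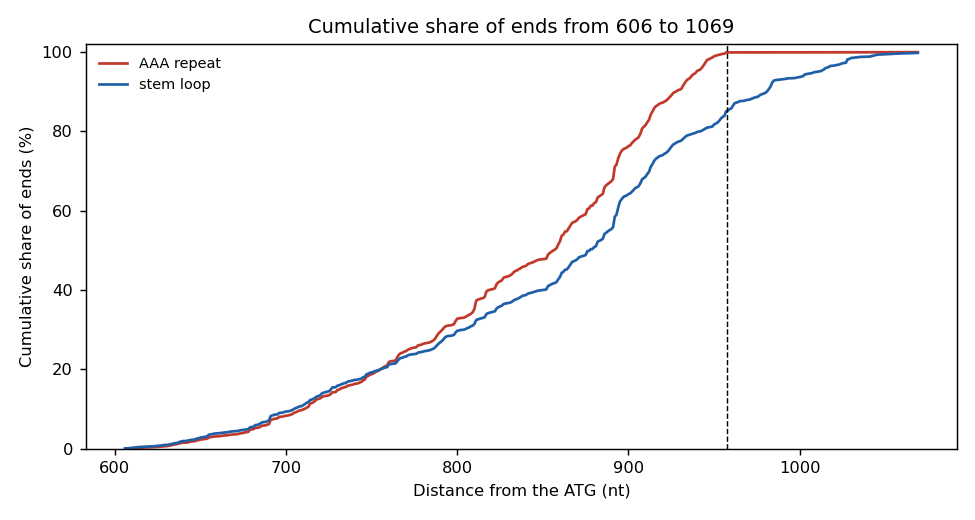
Cumulative share of all ends of a library (vertical axis, percent) against distance from the ATG (nt) for the AAA repeat and the stem-loop library, 1 library each, with the boundary dashed. At position 949 the AAA curve stood at 98.6% and the stem-loop curve at 81.2%, a gap of 17.4 points, the widest over the stretch shown.

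The frequent ends were largely the same positions. A local peak was defined as a position with more ends than each of the 2 positions on either side and at least 2 times the median of the 10 positions on either side. For the upstream peaks only positions of the upstream stretch were counted, so these flanks were shorter near its ends. In the upstream stretch the AAA library had 44 such peaks and the stem-loop library 42, and 34 were at the same nucleotide, 77.3% of the AAA peaks and 81.0% of the stem-loop peaks. In the CGA library, which had 40 peaks, 32 of these 34 were peaks as well. For reference, 12.5% of all 352 upstream positions were AAA peaks. The shared peaks held 27.8% of the AAA ends and 23.1% of the stem-loop ends. Their median log2 ratio was 0.26, beside 0.17 over all 352 positions, and it was 0.02 with the upstream total. The shared peaks past 2-fold were 811, where the AAA share was higher, and the last position before the boundary, where it was lower. With the upstream total only the latter was.

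The most frequent end of both reporters was at position 892, in codon 298 when position 1 is taken as the first base of the ATG and the listed position as the last base of the RNA. The sources used here do not say whether it is that base or the next one, and in the latter case this end lies in codon 297. It held 129472 AAA ends (3.12%) and 127537 stem-loop ends (2.62%). The 4 nt from 892 to 895 together held 6.39% of the AAA ends (6.36 to 6.41) and 6.44% of the stem-loop ends (6.42 to 6.46), against 3.33% of the CGA ends. With the library total this cluster thus had nearly the same weight in the AAA and stem-loop reporters. As shares of the upstream total it held 6.39% and 7.58%, a log2 ratio of -0.24. Within it the ends were placed a little differently. Position 894 held 66609 AAA ends (1.60%) and 86351 stem-loop ends (1.77%), and position 895 held 47641 (1.15%) and 73871 (1.52%). The log2 ratio went from 0.25 at 892 to -0.15 at 894 and -0.40 at 895.

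The other leading ends ranked differently in the libraries. Position 811 was second in the AAA library with 84128 ends (2.02%) and ranked 10 in the stem-loop library with 49011 (1.01%), a 2.01-fold higher AAA share. The neighbours 809 and 810 were also past 2-fold, and the 3 positions together held 3.25% of the AAA and 1.55% of the stem-loop ends. Position 886 held 69773 AAA ends (1.68%) and 58299 stem-loop ends (1.20%), and position 817 held 56285 (1.35%) and 37843 (0.777%). The AAA share was higher at both, though by less than 2-fold.

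Several leading ends had nearly equal shares with the library total. Position 913 held 56014 AAA and 62114 stem-loop ends (1.35% and 1.28%), and position 882 held 48911 and 56708 (1.18% and 1.16%). Position 691, the leading end nearest to the primer, held 44423 and 52721 (1.07% and 1.08%). At 882 and 691 the intervals of the log2 ratios, 0.016 (-0.0016 to 0.033) and -0.018 (-0.036 to 0.00035), included 0. With the upstream total these ratios were -0.22 and -0.25, so the near equality depended on the denominator. Position 861 held 57406 and 51478 ends (1.38% and 1.06%), position 876 held 53122 and 46340 (1.28% and 0.951%), and position 908 held 53368 and 46664 (1.28% and 0.958%). These 3 leaned to AAA by 1.31- to 1.34-fold with the library total, of which a factor of 1.17 comes with that denominator.

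The overlap between lists of the most frequent positions depended on their length, with 60% for 5 positions, 70% for 10 and 66% for 50. Of the 20 most frequent positions of each library, 17 were in both lists, 85% of each, the highest of these overlaps. The AAA positions outside the stem-loop list were 760, 765 and 810. The stem-loop positions outside the AAA list were the last before the boundary, 984 and 1028, so all 3 lay at or past the boundary. The last position before the boundary ranked 7 in the stem-loop library and 94 in the AAA library.

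Of the 18 peaks found in 1 library alone, 6 formed pairs 1 nt apart and 12 had no such partner. The AAA library peaked at 788, 792 and 866 where the stem-loop library peaked at 789, 793 and 867. Counting peaks within 1 nt as shared gave 37. The AAA library also peaked alone at the first position of the stretch and at 676, 718, 833, 871, 932 and 945, and the stem-loop library at 612, 736, 838, 950 and 954. The first position was not a stem-loop peak only because positions before it were left out of its flank. No earlier position held more than 7 stem-loop ends, so with them it would meet the rule in both libraries. The shared peaks lay a median of 6 nt apart, and their widest gap was the 44 nt from 913 to the last position before the boundary. Within that gap the AAA library peaked at 932 and 945 and the stem-loop library at 950 and 954. Position 950 was not an AAA peak only because positions past the boundary were left out of its flank. With them it would meet the rule in both libraries and divide this gap.

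**Figure D3:**
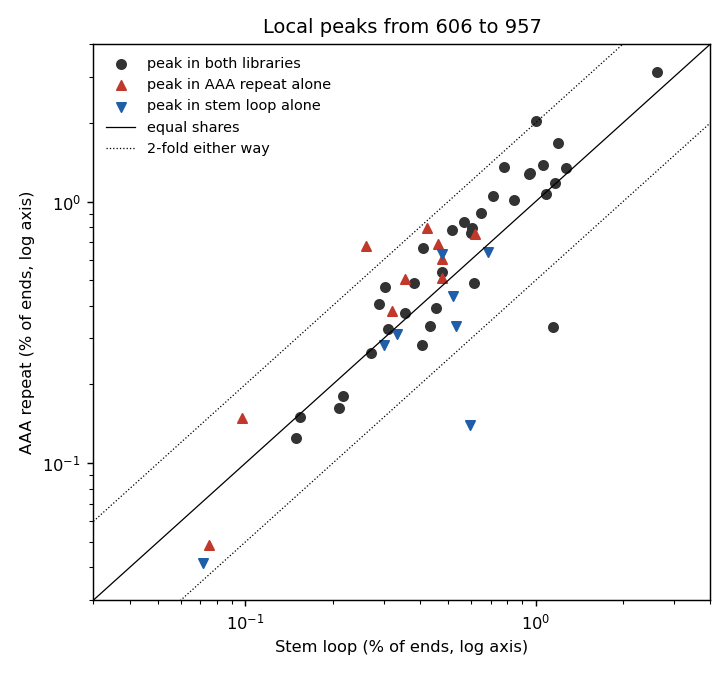
Share of ends at each local peak of the upstream stretch in the stem-loop library (horizontal, percent, log axis) and the AAA repeat library (vertical, percent, log axis), marked by whether it was a peak in both libraries (34), in AAA alone (10) or in the stem loop alone (8). Most points lie between the dotted 2-fold lines; the lone filled circle far below them is the last position before the boundary, with 0.333% of AAA ends and 1.15% of stem-loop ends.

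The similarity of the profiles held up to about 30 nt before the boundary. Across the 322 positions before 928, Pearson's r of the raw ends was 0.96 and Spearman's rho 0.96. Across the 30 positions from 928 to the boundary, r was 0.12 and rho 0.24. Positions of a library share its depth and are not independent, so the values are descriptions. In the same 30 positions r was 0.67 for CGA with AAA and 0.43 for CGA with stem loop. Their rho was 0.65 and 0.69, so which of the 2 was closer to CGA depended on the measure. No other stretch of 30 positions was compared in this way, so the fall has no reference from stretches of that length. The share of ends that differed in place, taken as the summed absolute difference between the profiles, each scaled to its own total, divided by 2, was 10.1% before 928 and 35.5% from 928 on.

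Of the 352 upstream positions, the AAA share was more than 2-fold higher at 19 (5.4%) and more than 2-fold lower at 6 (1.7%), which together is 7.1% of positions. With the upstream total the numbers were 13 higher and 16 lower, so the higher ones made up 44.8% of positions past 2-fold in place of 76.0%. All 13 higher positions under that total were among the 19, and all 6 lower ones were among the 16. From 928 to the boundary lay 13 of the 19 and 5 of the 6, so that 60% of these 30 positions were past 2-fold. Without these 30 positions, 6 higher (773, 809, 810, 811, 831 and 857) and 1 lower (610) remained with the library total. With the upstream total the balance before 928 was the reverse. The higher ones were then 773 and 809, and the lower ones 610, 611, 612, 615, 627, 651, 652, 658 and 690.

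Before 928 the ratio went up and down. In 10-nt windows the log2 ratio of AAA over stem loop was -0.70 from 608 to 617 and -0.50 from 618 to 627, next to the start of the covered stretch. It was 0.81 from 808 to 817, 0.35 from 878 to 887, 0.02 from 888 to 897 and -0.09 from 918 to 927. The stem-loop share was the larger in all 6 windows from 608 to 667. The AAA share was the larger in all 15 windows from 738 to 887, though with the upstream total the window from 788 to 797 stood at -0.03. From 888 to 927 the windows lay between -0.09 and 0.16. The first position of the stretch held 2025 AAA ends (0.0487%) and 3665 stem-loop ends (0.0753%).

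Within the last 30 nt the sign turned abruptly. The 15 nt from 935 to 949 held 237927 AAA ends, 5.73% (5.70 to 5.75), and 111125 stem-loop ends, 2.28% (2.27 to 2.30), a log2 ratio of 1.33 (1.317 to 1.338), or 2.51-fold. All 15 positions were higher in the AAA library and 13 were past 2-fold, while 939 and 942 fell just short at 1.99-fold and 1.997-fold. The 8 nt from 950 to the boundary held 53536 AAA ends, 1.29% (1.28 to 1.30), and 186612 stem-loop ends, 3.83% (3.81 to 3.85), a log2 ratio of -1.57 (-1.586 to -1.558). All 8 positions were lower in the AAA library, by 2.97-fold together, and the last 5 were past 2-fold. These stretches were delimited after the values were seen. Summed over the 30 nt the opposite differences offset each other in part, and the window held 9.99% of the AAA and 8.13% of the stem-loop ends, a 1.23-fold higher AAA share. As shares of the upstream total these were 10.01% and 9.56%.

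The largest ratios on either side were all in these 23 nt. Among the 339 upstream positions with at least 1000 ends in either library, the highest ratio was at 937, with 22985 AAA ends (0.553%) and 7409 stem-loop ends (0.152%), 3.64-fold higher in AAA. The next were 943, 947, 945 and 941, at 2.56- to 2.67-fold. The lowest was at 956, with 1264 AAA ends (0.0304%) and 11084 stem-loop ends (0.228%), 7.48-fold lower in AAA. The remaining 4 of the last 5 positions were 3.45- to 4.68-fold lower.

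The turn fell between 949 and 950. Position 949 held 7420 AAA and 3536 stem-loop ends, and position 950 held 13886 and 25908. Ends rose 1.87-fold across this pair in the AAA library and 7.33-fold in the stem-loop library. The log2 ratio went from 1.30 to -0.67, a step of 1.97, the largest among the 351 pairs of neighbouring positions, whose median step was 0.23. Of the next largest, the step of 1.36 from 952 to 953 lay in the last 30 nt, and those of 1.34 from 808 to 809 and 1.20 from 712 to 713 lay before 928. The mean log2 ratio of the 8 positions before was 1.30 and that of the 8 positions after -1.70. The CGA ends rose 4.45-fold across the same pair. The log2 ratio of CGA over stem loop was -1.58 from 935 to 949 and -3.03 from 950 to the boundary, and that of AAA over CGA was 2.90 and 1.46. From 950 to the boundary the stem-loop share thus gained on both codon repeats, and AAA was above CGA. In the downstream stretch AAA was below CGA, with 0.0762% against 0.216% of ends, a log2 ratio of -1.50.

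**Figure D4:**
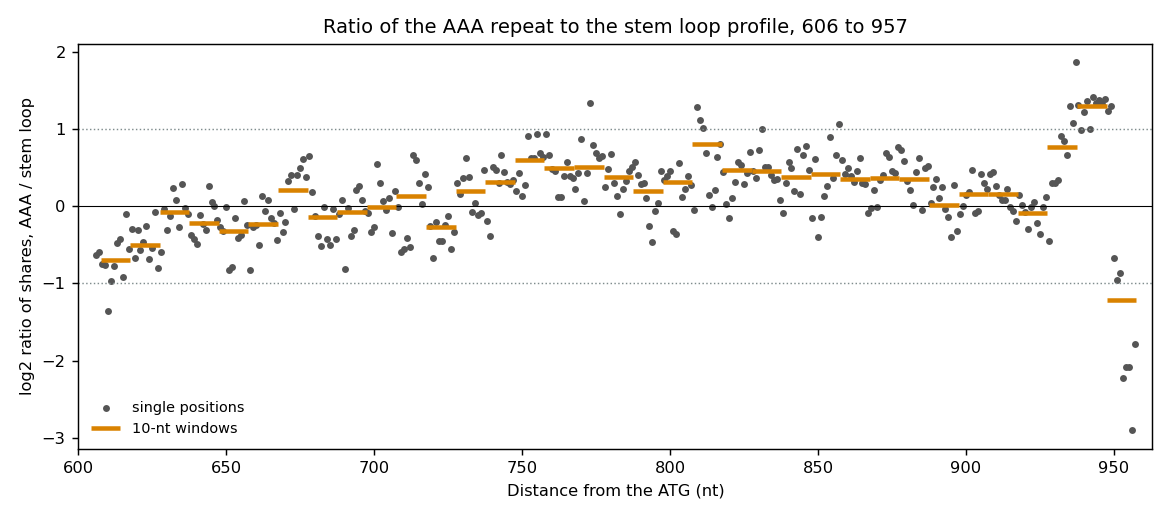
The log2 ratio of the share of ends in the AAA repeat over the stem-loop library at each upstream position (points) and in 10-nt windows (bars), against distance from the ATG (nt); dotted lines mark 2-fold. The windows climb to 1.30 at 938 to 947 and fall to -1.21 in the last 10 nt before the boundary.

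Over windows of 30 nt, the AAA ends dropped sharply at the boundary and the stem-loop ends did not. The boundary was placed where the libraries were known from earlier results to part. The size of the drop is thus a description, and its interval covers counting error only. The AAA library held 1264 ends at 956, 13819 at the last position before the boundary, 130 and 251 at the first 2 positions past it, and 6 at the next. The stem-loop library held 11084, 55825, 8968, 18796 and 7511 at the same positions. The last position before the boundary was thus a peak in both, but in the stem-loop library substantial counts continued on the far side. The mean over the 30 nt before the boundary was 13843 AAA ends per nt and over the next 30 nt 15.2, a drop of 911-fold (831 to 998). In the stem-loop library the means were 13193 and 12884, a ratio of 1.02 (1.019 to 1.029), and without the last position before the boundary it was 0.910. Over these 30-nt windows the CGA library lay between them with a 16.1-fold drop. From the last position before the boundary to the first past it, it did not. There ends fell 106-fold in the AAA, 6.22-fold in the stem-loop and 4.59-fold in the CGA library.

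**Figure D5:**
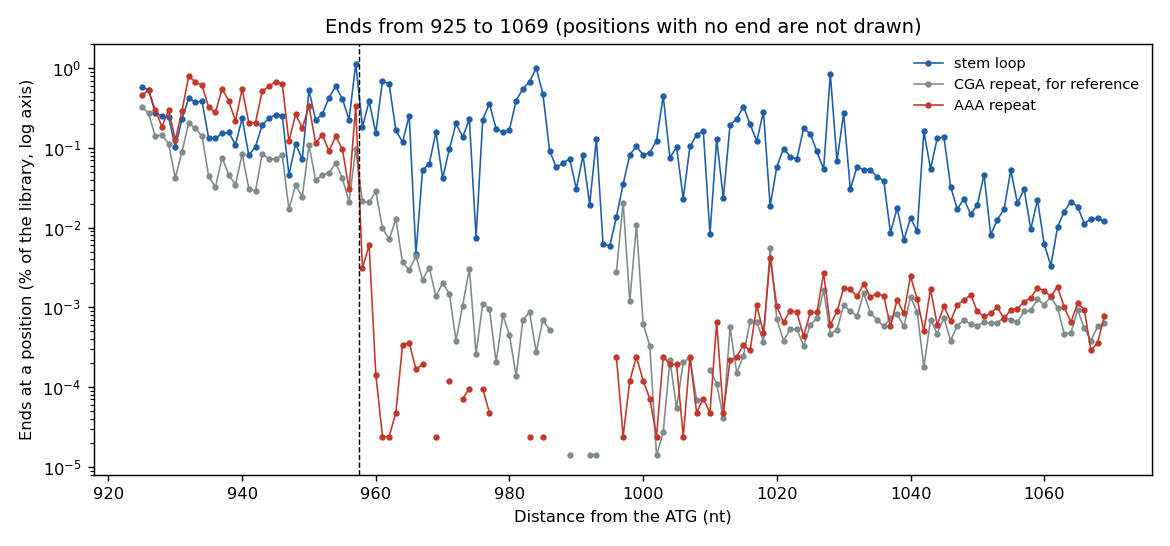
Share of ends at each position from 925 to the end of the downstream stretch (vertical axis, percent of the library, log scale) against distance from the ATG (nt) for the stem-loop, AAA repeat and CGA repeat libraries; positions with no end are not drawn and the dashed line marks the boundary. Across it the AAA line falls from 0.333% to 0.00313%, whereas the stem-loop line goes on to 1.01% at 984 and 0.858% at 1028.

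The downstream stretch was set apart as one with few AAA ends. There the AAA share was more than 2-fold lower at all 112 positions (100%), a result tied to that choice. The smallest difference was 2.44-fold, at 1061, and the median 187-fold, with an AAA count of 0 set to 3 ends. The AAA library had no listed end at 20 of these positions and fewer than 10 ends at 47, and its highest count was 251, at 959. The lowest stem-loop count was 163, at 1061. No end of the AAA library was listed at 984, where the stem-loop library had 48996. The AAA share there was thus at least 13933-fold lower against a floor of 3 ends. These folds compare positions by number, which past an insert need not mark the same base in both reporters.

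The downstream stem-loop ends were again gathered at particular positions. The stem-loop library had 12 local peaks there, which held 4.56% of all its ends. By the same rule the AAA library had 8, in a stretch where none of its positions held more than 251 ends. The first of the stem-loop peaks was 961, with 33877 ends (0.696%) in the stem-loop and 1 in the AAA library. The next were 977 with 17560 (0.361%) and 2, and 984 with 48996 (1.01%) and 0. Position 984 capped a rise from 981, and the 5 nt from 981 to 985 held 3.11% of the stem-loop ends (3.09 to 3.12) and 2 AAA ends. Further peaks within 60 nt of the boundary were 1003 with 21861 ends (0.449%) and 1015 with 16132 (0.331%), where the AAA library had 10 and 14. Position 1028 held 41809 stem-loop ends (0.858%) and 25 AAA ends. The stem-loop ends then thinned out, with 7.94% of the library in the first 30 nt past the boundary, 3.24% from 988 to 1017, 3.15% from 1018 to 1047 and 0.401% in the last 22 nt.

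The few downstream AAA ends were distributed otherwise. There were 420 in the first 8 nt past the boundary, 36 from 966 to 995, and 2710 from 996 on. The stem-loop library held 126226, 280260 and 311111 ends in these stretches. Per nucleotide the AAA library had 52.5, 1.2 and 36.6 ends in them, and the stem-loop library 15778, 9342 and 4204. Over the 112 positions r of log2(ends + 1) between the libraries was -0.30. When the AAA profile was moved against the stem-loop profile by 0 to 60 nt, r was highest at 58 nt (0.43) and was -0.05 at 36 nt, the length of 12 codons. With so few AAA ends, and a highest value close to the end of the range searched, these correlations describe no common pattern.

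The share of ends in frame 1 was alike in the reporters upstream of the boundary. Frame 1 is the first base of a codon if the listed position is the last base of the RNA, and would stand for ends at the third base if it is the next one. It held 40.72% of the AAA ends (40.68 to 40.77) and 40.71% of the stem-loop ends (40.66 to 40.75), intervals that overlap. Frame 2 held 28.4% and 26.4%, and frame 3 held 30.9% and 32.9%. Of the 34 shared peaks, 19 were in frame 1, 4 in frame 2 and 11 in frame 3, where these frames hold 117, 117 and 118 upstream positions. In the last 30 nt the order differed, with frame 1 first in the AAA library (37.7%) and frame 3 first in the stem-loop library (38.9%, against 30.4% in AAA). The last position before the boundary is in frame 3, and without it frame 3 held 28.9% of the stem-loop and 28.03% of the AAA ends from 928 to 956. In the downstream stretch the stem-loop ends were 36.3% in frame 1, 35.5% in frame 2 and 28.1% in frame 3, so frame 1 led frame 2 by less than it did upstream.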

How the data were processed

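Per the file headers, the authors deposited for each library the number of reads at each position relative to the ATG, and a frame. The deposited values are raw counts of RNA 3' ends by the authors, not normalized, since they are whole and sum differently in each library. The submitters' processing notes name the tools cutadapt (1.12), Novoalign, SAMtools (1.13) and bedtools, and neither their settings nor a reference or build is given in the sources used here. The AAA file has 9 lines with a frame and no position, which were left out. Sheet names tied files to samples. The compared stretch was 606 to 1069, and the boundary lay between 957 and 958. Shares, Wilson intervals, log2 ratios, peaks and correlations were computed in Python 3.11.15 (numpy 2.4.6, pandas 2.3.3, scipy 1.17.1; plots with matplotlib 3.10.9) after tests on simulated data. A count of 0 entered a ratio as 3 ends, and 1 was added before log2 of ends. Members and lists were chosen with earlier results of these data known. Named positions were the 10 most frequent of each library, the 5 largest ratios each way with at least 1000 ends in either library, local peaks within 60 nt of the boundary, 606, and 955 to 960; other positions and stretches were chosen after their values were seen. The reporters' sequence was not used here, so bases at the ends were not examined. Alternatives changed the denominator, filters, pseudocount, peak rule and windows.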

Additional observations from a re-analysis of the deposited data

Results flagged for a closer look

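Ends outside the compared stretch were listed for both reporters, above the 3 ends that a count of 0 allows, and no comparison used them. Before its first position the AAA library held 25 ends at 16 positions, and the stem-loop library 82 ends at 38 positions. Past its last position the AAA library held 2190 ends at 201 positions, and the stem-loop library 12148 ends at 353 positions. These later ends were spread differently by position number, which need not mark the same base in both reporters. From 1070 to 1123 the AAA library held 1132 ends and the stem-loop library 74, a 17.9-fold higher AAA share. From 1124 to 1177 the counts were 617 and 778, and from 1178 on they were 441 and 11296, a 21.9-fold lower AAA share. The fullest position there was 1078 in the AAA library (79 ends) and 1188 in the stem-loop library (193 ends).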

How the results depend on the processing

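No paired analysis was possible because each reporter had 1 library, which also left no replicate to omit. The base at the end and its alternative were not run. Of 41 alternatives, 16 gave a value inside the counting interval or a count within 1.5 times, 24 moved and 1 turned direction. At this depth the intervals are narrow, correlations and the difference between profiles had none, and the cause of a move was not tested. With the upstream total as denominator, 16 positions were more than 2-fold lower. With the library total and without the last 30 nt, 6 were higher and 1 lower. The downstream stem-loop share became 14.77% of the ends compared and 15.13% without the most frequent position. Shared peaks numbered 20 at 3 times the local median and 6 in sums over 3 neighbours, a sum that itself flattens single-nucleotide peaks. The difference between the upstream profiles, 12.6%, became 11.4% in sums over 3 neighbours, 13.01% without the most frequent position and 13.7% with the library total. Upstream Pearson's r, 0.920, became 0.941 on log2(ends + 1), 0.913 with a running mean subtracted and 0.912 in sums over 3 neighbours. The drop at the boundary was 165-fold over 10 nt and 1608-fold over 50 nt in the AAA library. In the stem-loop library the ratio was 1.52 and 1.87 over these widths and 0.910 without the last position before the boundary, where the direction turned, so which side held more is not settled. The frame 1 share became 38.8% in both libraries without the most frequent position, and 33.9% (AAA) and 34.03% (stem loop) with each position at log2(ends + 1). With the upstream total the log2 ratio was 1.10 from 935 to 949 and -1.80 from 950 on, where it was -1.49 without the fullest position. Alternatives for these last stretches, and leaving out the last 30 nt, were chosen after seeing the data.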
